A study of Mus musculus with 2 samples.

Results

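The Frizzled and Lrp5/Lrp6 loci are the genome windows named for Fzd1, Fzd2, Fzd4, Fzd7, Lrp5 and Lrp6, which encode receptors for secreted Wnt proteins. The members were chosen by position, with earlier results of these data known. They are the regions of a deposited list that overlap 1 of these 6 windows of genome build mm9, 680 kb in all. The Frizzled windows are at 4720000 to 4790000 on chromosome 5 (Fzd1), 102430000 to 102500000 on chromosome 11 (Fzd2), 96510000 to 96600000 on chromosome 7 (Fzd4) and 59500000 to 59580000 on chromosome 1 (Fzd7). The Lrp windows are at 3550000 to 3720000 on chromosome 19 (Lrp5) and 134360000 to 134560000 on chromosome 6 (Lrp6). Of 61400 listed regions, 58 were members (0.0945%). They come from chromatin immunoprecipitation followed by sequencing (ChIP-seq) of MC3T3 sc4 cells, a mouse osteoblast line from calvaria. The SAHA library was from cells given 20 µM SAHA, an inhibitor of histone deacetylases also called vorinostat, and the DMSO library from cells given only its solvent. Both groups were kept in osteogenic medium with ascorbic acid and beta glycerol phosphate. The drug or solvent was added on day 4 for 2 hours and was also present during a collagenase digest of 40 min. The labels name the antibody as histone H4, and the design text speaks of its acetylated form.

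Each condition had 1 library, so each difference compares these libraries and has no replicate check. After the authors' limit on duplicates the SAHA library kept 97.4% and the DMSO library 65.6% of its tags. The part that this unequal loss plays in the values was not tested. The list holds only regions where the caller found more tags in SAHA than in DMSO, called SAHA-high here. A stretch with no region therefore had no such gain at the authors' cutoff, and its acetylation is not known from the list. The osteoblast identity of the cells could not be checked from such a list.

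Frizzled proteins are membrane receptors that bind Wnt ligands through a cysteine-rich domain outside the cell. Lrp5 and Lrp6 are single-pass co-receptors that join the Wnt-bound Frizzled protein and, once phosphorylated, help to keep beta-catenin from being degraded. In bone, Wnt signalling through Lrp5 and Lrp6 is known to favour osteoblast formation, and changes in human LRP5 are known to alter bone mass. Histone H4 acetylation is a mark of open, transcribed chromatin, and deacetylase inhibitors raise it.

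RefSeq promoter sequences of build GRCm38.p6 were found for 3 of the 6 genes, Fzd1, Fzd4 and Fzd7. All 3 that were found are shown. Among the Frizzled loci, Fzd1 had the fewest regions, Fzd4 the lowest DMSO level and Fzd7 the most regions. Each runs 5′ to 3′ on the gene's own strand from 250 bases before the start to 50 after it. Capitals mark the GC box, the letters GGGCGG or, on the other strand, CCGCCC, with overlapping matches counted each. The Fzd1 promoter lies at chr5:4758167-4758466 on the minus strand. Those of Fzd4 and Fzd7 lie on the plus strand at chr7:89404116-89404415 and chr1:59481897-59482196. These positions cannot be set beside the mm9 windows, so no promoter was placed inside or outside a region.

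Fzd1: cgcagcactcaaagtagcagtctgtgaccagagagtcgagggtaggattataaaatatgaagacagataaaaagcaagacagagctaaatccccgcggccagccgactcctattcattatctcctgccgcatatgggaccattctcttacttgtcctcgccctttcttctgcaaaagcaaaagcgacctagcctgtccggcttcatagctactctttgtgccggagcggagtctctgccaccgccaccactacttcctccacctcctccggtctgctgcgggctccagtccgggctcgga

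Fzd4: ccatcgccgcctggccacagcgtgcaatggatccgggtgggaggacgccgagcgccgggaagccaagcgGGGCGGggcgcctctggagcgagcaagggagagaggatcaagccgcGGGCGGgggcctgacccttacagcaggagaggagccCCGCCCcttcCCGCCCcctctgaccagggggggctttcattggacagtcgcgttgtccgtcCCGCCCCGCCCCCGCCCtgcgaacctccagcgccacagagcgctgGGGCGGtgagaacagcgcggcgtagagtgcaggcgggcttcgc

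Fzd7: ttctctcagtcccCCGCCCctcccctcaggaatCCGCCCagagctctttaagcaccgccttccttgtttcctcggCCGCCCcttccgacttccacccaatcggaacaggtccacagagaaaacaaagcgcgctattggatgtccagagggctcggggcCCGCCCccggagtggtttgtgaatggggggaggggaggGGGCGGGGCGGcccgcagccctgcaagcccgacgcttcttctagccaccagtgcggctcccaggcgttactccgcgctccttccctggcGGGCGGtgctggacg

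The Fzd4 promoter held 8 GC boxes, the Fzd7 promoter 7 and the Fzd1 promoter 0, and 35.7% of 32851 promoters held at least 1. Bases G and C made up 72.7% of the Fzd4, 66.7% of the Fzd7 and 54.0% of the Fzd1 promoter, against a median of 52.7% over all promoters. The letters TATAAA occurred once on the strand shown or its complement in the Fzd1 promoter and in 13.6% of all promoters. The letters TCAAAG, the core bound by TCF/LEF factors, also occurred once in the Fzd1 promoter and in 16.0% of all promoters. Neither was found in the Fzd4 or Fzd7 promoter. These matches describe the letters only.

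All 6 windows held at least 1 SAHA-high region, but very unevenly. The windows of Fzd1, Fzd2, Fzd4 and Fzd7 held 1, 5, 5 and 12 regions, and those of Lrp5 and Lrp6 held 13 and 22. Because the windows differ in length, this is 1.43, 7.14, 5.56 and 15.0 regions per 100 kb at the Frizzled loci and 7.65 and 11.0 at Lrp5 and Lrp6. The share of the window inside regions was highest at Fzd7, with 48.2%, followed by Lrp6 with 36.7%, Fzd2 with 33.4% and Lrp5 with 25.8%. It was 8.16% at Fzd4 and 1.16% at Fzd1. Together the regions covered 27.6% of the 6 windows. All listed regions together came to 6.86% of the effective genome size that the caller used.

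**Figure D1:**
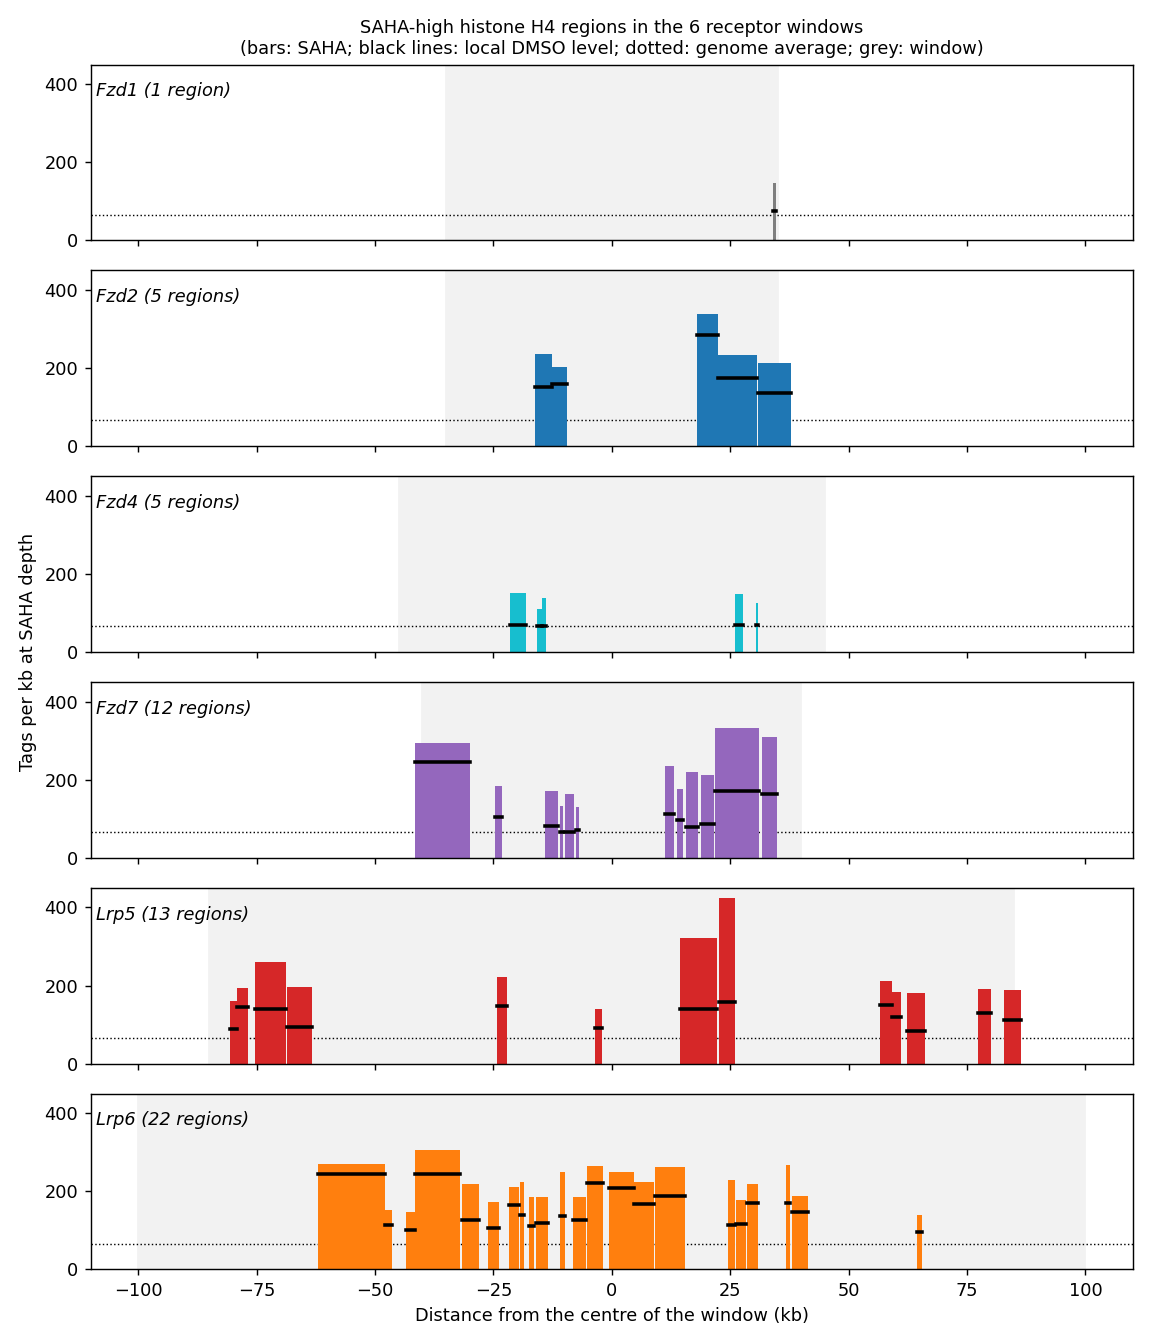
SAHA-high regions in the 6 receptor windows, plotted by distance from the window's centre (kb) against tags per kb at SAHA depth. Coloured bars are SAHA tags per kb of each region, black lines the local DMSO level, the dotted line the genome average of 66.1 tags per kb, and grey the window. The Lrp6 regions have a median ratio of 1.45, from values that are lower limits or approximate. The tallest Lrp5 region, at 423.2 SAHA tags per kb, has a DMSO level of 159.0 per kb.

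For each region the SAHA tags were set against the local DMSO level. This is the DMSO background that the caller held against the region, recovered from the listed tags and score and given at SAHA depth, so dividing the SAHA tags by it gives a ratio with no remaining difference in depth. The level was the region's own DMSO count in 4 of the 58 regions, where the ratio is exact. In 40 regions it matched the genome average or DMSO tags over 1 kb or 10 kb around the region. There the DMSO signal may be lower than the level, so the ratio is a lower limit, if the caller took the highest of its backgrounds, as it is known to do. In the other 14 regions it matched no background, and level and ratio are approximate, written as "about". Intervals are 95% Poisson intervals of the SAHA tags unless named otherwise, and cover counting error only. They leave out the counting error of the DMSO level, so they are too narrow for the ratio, and the order of close ratios is not settled by them. The binomial intervals, given where the region's own DMSO count is known, include both. The summit fold is the authors' value and sets the highest SAHA point, not the whole region, against the same level. The list is cut at a score of 50, so a region with few tags needs a larger ratio to be listed. At Fzd4 a region with 61 SAHA tags scored 51.86 at a ratio of 1.82. An Lrp6 region with 3777 tags scored 92.80 at about 1.11. The level is also the divisor, so a high level and a small ratio are not separate observations. How much the cut and the divisor shape the differences in ratio between loci was not tested.

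At Fzd7, whose receptor acts in both beta-catenin dependent and independent Wnt signalling, the regions combined high SAHA density with ratios mostly above the list's median of 1.80. The 12 regions held 130.0 to 333.7 SAHA tags per kb, against a local DMSO level of 66.1 to 245.9 per kb. The median ratio was 1.98 (range 1.20 to 2.78) and the median summit fold 5.10 (range 3.69 to 7.28). In the rest of chromosome 1 the median ratio was 1.80 and the median fold 3.95. Of the 12, 10 had a ratio above that median, and 10 had a fold above the other. The exceptions in ratio were the region of 11.6 kb at one end of the window and the one next to it.

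The region with the highest fold of all 58 members, 7.28, lay at 59561703 to 59570992 on chromosome 1. It was 9.29 kb long and held 3100 SAHA tags, or 333.7 per kb, against about 170.2 per kb at the DMSO level, a ratio of about 1.96 (interval 1.89 to 2.03). Its score was 2487.40 and its FDR 100%. A shorter neighbour at 59555724 to 59558246 had a ratio of 2.78 (interval 2.55 to 3.02, from the SAHA tags alone), the highest value among the members. If its DMSO level was taken over 1 kb, which cannot be told from 10 kb here, it rests on 49 DMSO tags, so the rank is uncertain. It held 220.8 SAHA tags per kb, against a DMSO level of 79.5 per kb, with a fold of 6.60. The longest Fzd7 region, also the one with the most tags, was different. At 59498441 to 59510041 it held 3417 SAHA tags, or 294.5 per kb, but the DMSO level was already about 245.9 per kb and the ratio about 1.20 (interval 1.16 to 1.24). Its summit fold was 5.63, its score 242.55 and its FDR 64.5%, so over this region the summit and the whole length gave very different values.

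The Fzd7 regions fell into 2 groups of 6, with 18.3 kb between them (59532996 to 59551298) in which no region was listed. Joined across gaps of up to 10 kb, both groups ran past the window. The lower one spanned 115.4 kb with 20 further regions below the window, and the upper one spanned 95.8 kb with 13 further regions above it. In RefSeq gene order on GRCm38.p6 the protein-coding neighbours of Fzd7 are Cdk15 and Gm973. Which regions belong to which gene could not be told, because the annotation used here is of another build.

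The Fzd4 locus, whose receptor binds Norrin as well as Wnt ligands, held 5 regions on the lowest DMSO background of the 6 loci. SAHA tags ran from 110.9 to 151.7 per kb, against DMSO levels of 66.1 to 70.2 per kb, that is 1.00 to 1.06 times the genome average. The median ratio was 2.08 (range 1.68 to 2.22), against 1.85 in the rest of chromosome 7. The longest of these regions, at 96533412 to 96536853, also had the most tags and the highest fold, 5.08, with a score of 579.73 and an FDR of 100%. It was 3.44 kb long and held 522 SAHA tags against 145 DMSO tags of its own, which scale to 235.3 at SAHA depth. The ratio after scaling was 2.22, with an exact 95% binomial interval of 1.84 to 2.69. A stretch of 39.9 kb, from 96541089 to 96581007, separated the first 3 regions from the last 2.

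At Fzd2, changed in human omodysplasia, a skeletal disorder, the pattern was the reverse, with a high local DMSO level and small ratios. The 5 regions held 204.0 to 337.8 SAHA tags per kb, against DMSO levels of 136.3 to 285.8 per kb, or 2.06 to 4.32 times the genome average. All 5 ratios as recovered, 1.18 to 1.57 with a median of 1.35, were below the median of 1.78 in the rest of chromosome 11. Except in the regions below with DMSO counts of their own, they are lower limits or approximate. At 102483086 to 102487372 the SAHA library had 1448 tags and the DMSO library 755, which gave a ratio of 1.18 at equal depth (exact 95% binomial interval 1.08 to 1.29). At 102448839 to 102452392 the counts were 836 SAHA and 331 DMSO tags, and the ratio at equal depth was 1.56 (binomial interval 1.37 to 1.77). The longest Fzd2 region, at 102487413 to 102495615, had the most tags, 1925, the highest fold, 4.48, and a ratio of about 1.35 (interval 1.29 to 1.41). It was 8.20 kb long, with a score of 359.31 and an FDR of 77.1%. The region at 102495790 to 102502818 crosses the edge of the window and has its summit outside it, at 102500287.

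Fzd1, a receptor that can signal through beta-catenin, had the fewest regions. Its single region, at 4788937 to 4789746 on chromosome 5, was 810 bp long and began 68.9 kb into a window of 70 kb. It held 120 SAHA tags (interval 99.5 to 143.5), or 148.1 per kb, against a DMSO level of 76.3 per kb. Its ratio was at least 1.94 (interval 1.61 to 2.32), its fold 3.35, its score 107.44 and its FDR 66.4%. Below the window the nearest listed region lay 409.3 kb away, and above it 3.65 kb away, at 4793650 to 4794707. The protein-coding neighbours of Fzd1 in gene order are Mterf1b and Cdk14.

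Lrp5 held the single region of highest score and also many of modest ratio. The 13 regions had 138.7 to 423.2 SAHA tags per kb, against DMSO levels of 83.1 to 159.0 per kb. Ratios ran from 1.35 to 2.66 with a median of 1.68, against 1.67 in the rest of chromosome 19, and 7 of the 13 were above that median. Folds ran from 2.68 to 5.98. The range of SAHA density was thus wider than that of the local DMSO level.

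A pair of adjoining regions stood above the other Lrp5 regions in SAHA density. The one at 3657649 to 3660992 had the highest density of the 58 members, 423.2 SAHA tags per kb, against a DMSO level of 159.0 per kb. Its ratio was at least 2.66 (interval 2.52 to 2.80) and its fold 5.98, the highest at Lrp5. It was 3.34 kb long, with 1415 SAHA tags, a score of 2200.18 and an FDR of 100%. The one before it, at 3649306 to 3657212, was the longest at 7.91 kb and had the most tags, 2544, or 321.7 per kb, against about 140.9 per kb at the DMSO level. Its score of 2933.23 was the highest of the members, and its ratio was about 2.28 (interval 2.20 to 2.37), with a fold of 5.38 and an FDR of 100%. Together they formed an island of 11.7 kb, 96.3% covered, with no other region within 10 kb.

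A further Lrp5 group lay near the lower end of the window, where the regions at 3559665 to 3566257 and 3566393 to 3571730 had folds of 5.49 and 5.75. Its other regions inside the window, at 3554422 to 3555771 and 3555821 to 3558140, had folds of 3.58 and 3.09. Above the island, the region at 3697233 to 3701137 held 705 SAHA tags against 200 DMSO tags of its own. At equal depth the ratio was 2.17 (exact 95% binomial interval 1.85 to 2.55). A gap of 38.9 kb, from 3571730 to 3610668, held no region, and the ratios beside it were at least 2.11 below and at least 1.49 above. The protein-coding neighbours in gene order are Ppp6r3 and 1810055G02Rik, and the group at the lower end ran 25.8 kb past the window.

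Lrp6, like Lrp5 a target of the secreted inhibitor Dkk1, had the most regions and the most SAHA tags, 17475, but among the lowest ratios. Of its 22 regions, 21 formed 1 chain of 103.4 kb, from 134398058 to 134501486, with 70.0% of it inside regions and no gap over 10 kb. The chain lay wholly inside the window. SAHA density ran from 140.0 to 306.3 tags per kb, against DMSO levels of 95.7 to 244.6 per kb. The local DMSO level reached 2 times the genome average or more in 12 of the 22 regions (54.5%), against 16.1% of the list. Its median was 2.10 times. The median ratio was 1.45, against 1.68 in the rest of chromosome 6. Of the 22 ratios as recovered, each a lower limit or approximate, 3 were above that median. A ratio of 2 was reached by 1 (4.5%), against 28.0% of the list.

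The longest Lrp6 region was also the longest of the 58 members. At 134398058 to 134412050 it spanned 14.0 kb and held 3777 SAHA tags, or 269.9 per kb, against about 244.1 per kb at the DMSO level. Its ratio of about 1.11 (interval 1.07 to 1.14) was the lowest of the members, while its summit fold was 5.18, its score 92.80 and its FDR 70.7%. The highest Lrp6 fold, 5.24, was at 134469059 to 134475556, with 261.0 SAHA tags per kb against about 187.7 per kb at the DMSO level and a ratio of about 1.39. It was 6.50 kb long, with 1696 SAHA tags, a score of 376.30 and an FDR of 79.2%. The region that reached a ratio of 2 was 1499 bp long, at 134484498 to 134485996, with 230.2 SAHA tags per kb against 113.6 per kb at the DMSO level. There the ratio was at least 2.03 (interval 1.82 to 2.25), and this region was chosen after its values were seen. No Lrp6 score exceeded 423.75. The protein-coding neighbours are Bcl2l14 and Mansc1.

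The windows were next compared with equal-sized tiles laid end to end over the same chromosome, leaving out tiles that touch the window. Tiles were not picked to hold a gene and include stretches where few tags can map, and between 41.9% (chromosome 19) and 64.1% (chromosome 7) of them were empty. The 22 regions of Lrp6 were matched or exceeded in 2.55% of 744 tiles, and the 12 of Fzd7 in 3.99% of 2458. For the 13 regions of Lrp5 the share was 7.26% of 358 tiles. The 5 regions of Fzd4 were reached in 17.4% of 1692 tiles and the 5 of Fzd2 in 20.0% of 1736. The single region of Fzd1 was reached in 36.3% of 2171 tiles, which are all the tiles that were not empty.

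**Figure D2:**
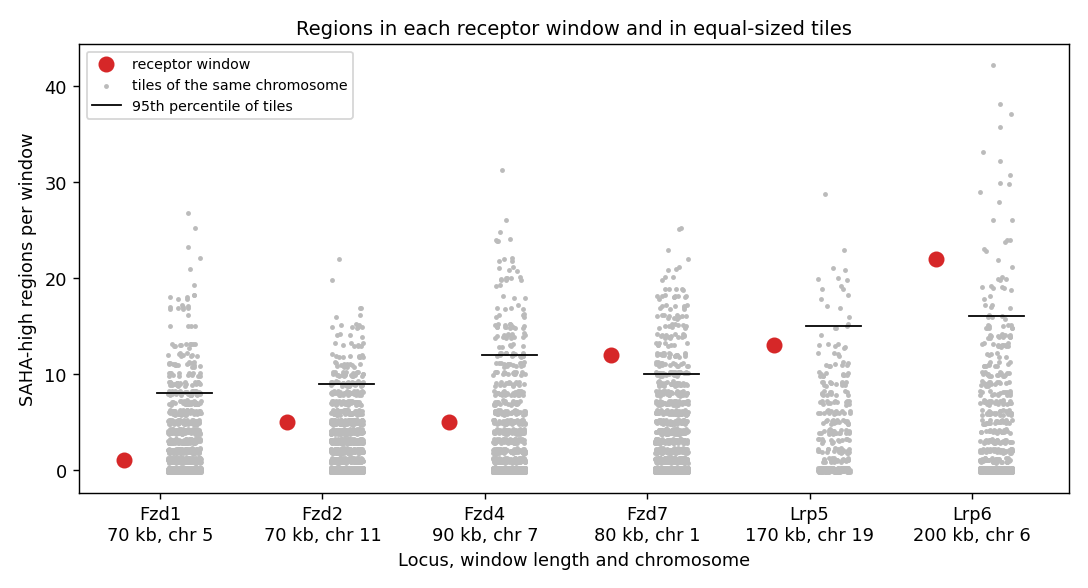
Number of SAHA-high regions in each receptor window (red point) and in the equal-sized tiles of its chromosome (grey points, spread sideways and slightly up and down to be visible), with the 95th percentile of the tiles as a black line. Lrp6 with 22 and Fzd7 with 12 regions lie above that line, and the other 4 windows lie below it.

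Among tiles with at least 1 region, Lrp6 held 22 against a median of 6, Fzd7 held 12 against 4, and Lrp5 held 13 against 6. Fzd2 and Fzd4, with 5 each, were close to the median of 4, and Fzd1 with 1 was below the median of 3. By covered share the order changed. Fzd7 was matched in 1.06% of tiles, Lrp6 in 1.21%, Fzd2 in 3.92% and Lrp5 in 5.03%. The 5 Fzd2 regions had a median length of 4287 bp. Fzd4 was matched in 19.1% and Fzd1 in 33.2%. Against tiles of all autosomes, the share with as many regions as Lrp6 was 5.47%, and for Lrp5 11.8%, each over 1.5 times that on their own chromosome.

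Pooled over the 6 loci, the members had a higher median length and density than the list and a lower median ratio, but the loci did not all share this. Their median length was 2458 bp, against 1337 bp in the whole list, and their median density 199.8 SAHA tags per kb, against 160.1. Of the 58, 11 were longer than 5 kb (19.0%), against 7.85% of the list. Median levels in DMSO were 1.86 times the genome average at the members, against 1.29 times in the list, and 26 members (44.8%) were at 2 times the average or more, against 16.1%. The median ratio was 1.61, against 1.80, and 14 members (24.1%) had a ratio of at least 2, against 28.0%. Members also held more SAHA tags, a median of 480 against 215, and regions with more tags can be listed at smaller ratios. Fzd4 (median 920 bp, 137.8 SAHA tags per kb, ratio 2.08) and the single Fzd1 region (810 bp, 148.1 per kb, ratio 1.94) differed from the list medians of length, density and ratio in the other direction. The Lrp members lie on chromosomes whose other regions were themselves longer and denser than the list, with medians of 1769.5 bp and 180.4 SAHA tags per kb on chromosome 19 and 1672 bp and 174.3 per kb on chromosome 6.

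The median summit fold was 3.93 both in the members and in the list. A fold of at least 5 was found in 16 members (27.6%), against 19.0% of the list, of which 7 were at Fzd7, 4 at Lrp5, 4 at Lrp6 and 1 at Fzd4. The deposited FDR stood at 100% in 11 members (19.0%), against 11.6% of the list. The lowest FDR was 58.27% among the members and 58.23% in the list. The members at 100% were those of highest score, and an FDR of 100% means, by the definition known for this caller, that at least as many regions scored as well with SAHA and DMSO exchanged. Regions of 1 locus adjoin each other and are not independent, so these shares have no test.

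**Figure D3:**
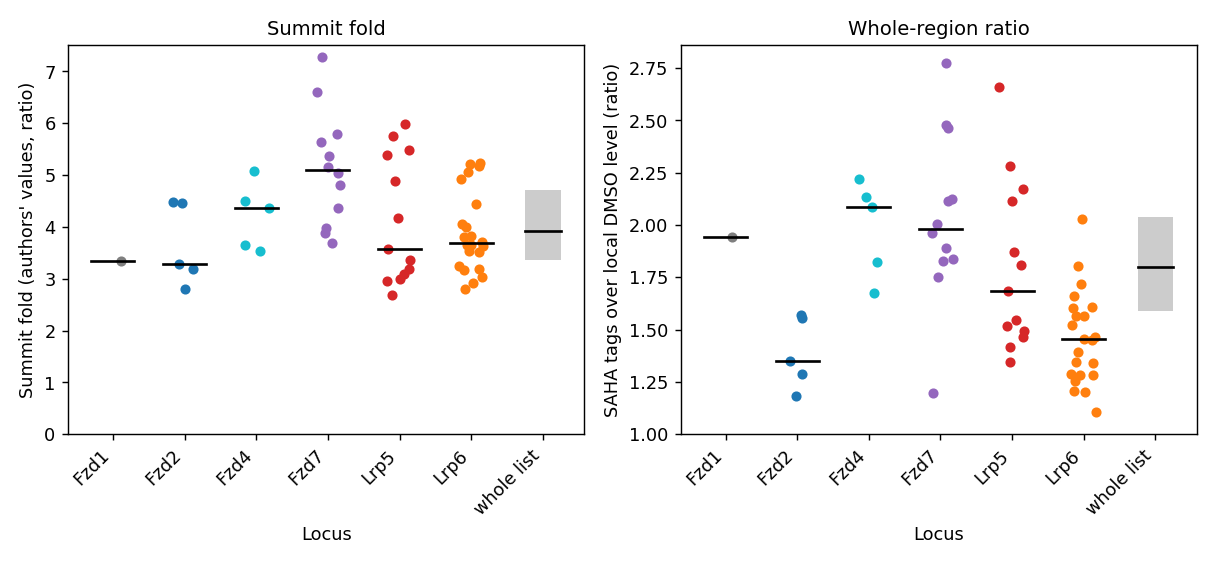
Summit fold (left) and whole-region ratio, SAHA tags over the local DMSO level (right), of each region by locus, with the locus median as a black line. The grey box gives the quartiles of the whole list and its line the median, 3.93 for fold and 1.80 for ratio. Fzd7 lies mostly above the list median on both scales, and Fzd2 and Lrp6 lie mostly below it on the ratio scale.

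The ranges of the Frizzled and the Lrp loci overlapped. The 23 Frizzled regions had a median ratio of 1.89 (range 1.18 to 2.78) and the 35 Lrp regions 1.52 (range 1.11 to 2.66). The median folds were 4.47 and 3.66, and the median DMSO levels 1.30 and 2.09 times the genome average. Loci also differed within each family. Summed DMSO levels mix exact values, upper limits and approximate values. At Fzd2, Fzd7, Lrp5 and Lrp6 the longest region matched no background, so its level is approximate and weighs most in the sum. Summed over its regions, Fzd2 had 242.5 SAHA tags per kb against a DMSO level of 177.2 per kb, close to Lrp6 with 238.1 against 183.3. Fzd7 had 263.7 against 158.0 and Lrp5 240.1 against 125.1. Fzd4 had 142.6 against 68.2 and Fzd1 148.1 against 76.3. The intervals of SAHA density overlapped at Fzd2, Lrp5 and Lrp6 (236.6 to 248.6, 235.6 to 244.7 and 234.6 to 241.6 tags per kb), while the DMSO level at Lrp5 was lower.

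**Figure D4:**
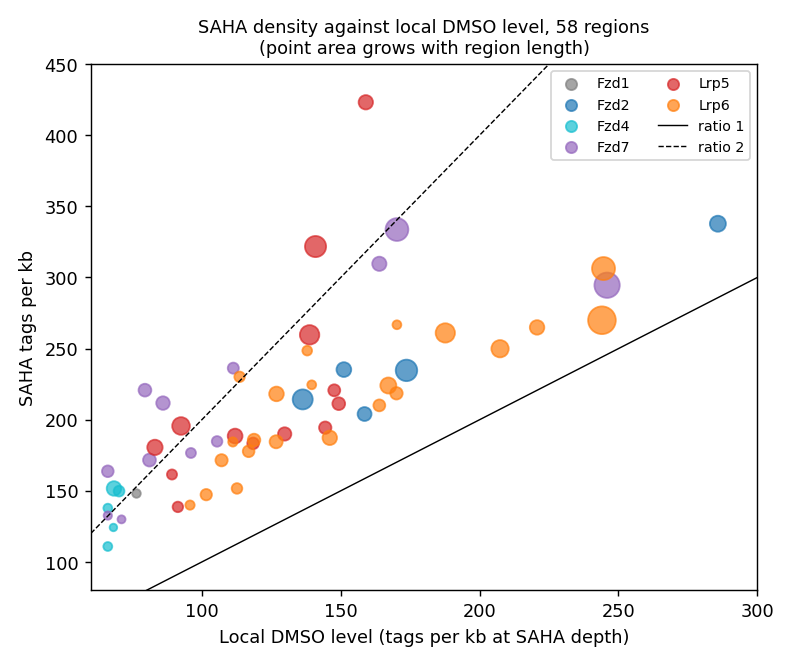
SAHA tags per kb against the local DMSO level in tags per kb at SAHA depth for the 58 regions, coloured by locus, with point area growing with region length and lines at ratios of 1 and 2. Lrp6 and Fzd2 regions lie mostly nearer the line of ratio 1, and the regions on or above the line of ratio 2 are mainly from Fzd7, Lrp5 and Fzd4.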

How the data were processed

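ChIP-seq of histone H4 was analysed from 1 SAHA and 1 DMSO library. The submitters' processing notes name build mm9, the peak caller MACS 1.4.0rc2, SAMtools, the aligner BWA 0.5.9 and CASAVA 1.7.0. Per the file headers, the caller compared SAHA as the ChIP file with DMSO as control, at a p cutoff of 1e-05 with at most 3 duplicate tags per position, and scaled the smaller library to the larger (123676661 SAHA and 76214516 DMSO tags kept, factor 1.62). Tags in the deposited list are raw counts from the SAHA library, as whole numbers. The deposited score is the −log10 of a p-value under a Poisson model, multiplied by 10. The deposited fold enrichment is a ratio at the summit, and the deposited FDR is a percent.

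The windows were taken from the rule, and any overlap made a region a member. The local DMSO level is the Poisson mean at which more than the listed tags has the listed score. It was matched, within the score's rounding of 0.005, to whole DMSO tags in the region, in 1 kb or in 10 kb, or to the genome average. A match by chance was at most 3.75% likely for any member. In all 31 matched members precise enough to test, the summit height implied by fold and level was a whole number to within 0.1 tags. The recovery was tested on data simulated from the same Poisson model. Each simulated level was set to the genome average or to whole DMSO tags in the region or in 10 kb. That test therefore does not cover the 14 members that matched no background. Densities count whole regions, and covered shares count only bases inside the window. In each locus the regions of highest fold, of most tags and of greatest length were named by rule. Python 3.11.15, numpy 2.4.6, scipy 1.17.1, pandas 2.3.3 and matplotlib 3.10.9 were used.

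The members and alternatives were chosen with earlier results of these data known. No annotation of build mm9 was used here, so regions were not placed in exons, introns or promoters, and other Wnt pathway genes were not analysed here.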

Additional observations from a re-analysis of the deposited data

How the results depend on the processing

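No alternative here can stand in for replicates, and the local DMSO level is exact in only 4 of the 58 regions. No paired analysis was possible because each condition has 1 library. The 58 regions fell to 16 at a summit fold of at least 5, to 31 when joined across gaps of up to 1 kb, and to 36 without the Lrp6 locus. The covered share of 27.6% was 21.0% with a score minimum of 100, 12.0% with a fold minimum of 5 and 26.9% with only regions whose summit lies inside the window. It was 30.6% without Fzd1, 26.9% without Fzd2, 30.5% without Fzd4, 24.8% without Fzd7, 28.1% without Lrp5 and 23.7% without Lrp6. The pooled density of 240.5 SAHA tags per kb was 243.9 with that score minimum, 269.5 with that fold minimum, 244.3 without Fzd4 and 234.4 without Fzd7. The median ratio of 1.61 was 2.07 with the fold minimum, 2.61 with no depth scaling and 1.83 without Lrp6. Stricter limits, joining and left-out loci lower counts by construction, and without depth scaling every ratio is larger by the factor of 1.62. For the remaining shifts the cause was not tested. The median fold of 3.93 ran from 3.655 (without Fzd7) to 4.44 (score minimum of 100) under the 8 alternatives run for it. All 6 loci held more regions than the median tile, but this says little. That median was 0 for Fzd1, Fzd4, Fzd7 and Lrp6, where any window with 1 region exceeds it. It was 1 for Fzd2 and 2 for Lrp5. Among tiles with at least 1 region, 5 loci exceeded the median, and 4 loci exceeded the median of all tiles at a fold of at least 5.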
